A study of Mus musculus with 4 samples.

Results

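Expression of 10 genes of the endoplasmic reticulum (ER) unfolded protein response was followed in lung endothelial cells (ECs) with and without ADAR1, the enzyme that edits adenosine to inosine in RNA. The genes were Hspa5, Hsp90b1, Dnajb9, Sdf2l1, Manf, Pdia4, Creld2, Herpud1, Edem1 and Xbp1, taken as a fixed list of targets of the ATF6 and XBP1 branches of this response, out of 24421 genes counted. The question was whether these genes moved when targets of the transcription factor ATF4 rose after ADAR1 loss. RNA came from cultured lung ECs, selected with CD31 and then ICAM-2, of 2 male C57/BL6 mice aged 2 weeks that carry an inducible ADAR1 knockout (i-KO), 1 from each of 2 litters. Cells of each mouse were either treated in culture with 4-OH-tamoxifen, which switches on the deletion (TM), or left untreated (CON). The mice are called EC1 and EC2, each gave 1 CON and 1 TM library, and n was therefore 2 in each group. Where 4 values stand in a row, they belong to CON and TM of EC1 and then to CON and TM of EC2. All 4 cultures shared the i-KO genotype, whose Cre driver is not given in the sources used here, and no drug-treated culture without the floxed gene was among them. ADAR1 loss and tamoxifen exposure therefore cannot be told apart.

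The ER folds secreted and membrane proteins, and the unfolded protein response adjusts its capacity. Sensors in the ER membrane start it. IRE1 (gene Ern1) cuts a short intron out of Xbp1 mRNA so that the active factor XBP1s is made, ATF6 is cleaved to a free transcription factor, and PERK (gene Eif2ak3) phosphorylates the translation factor eIF2alpha, which favours translation of ATF4. Other eIF2alpha kinases, among them the double-stranded RNA sensor PKR (gene Eif2ak2), also lead to ATF4, a route known as the integrated stress response. BiP (gene Hspa5) and the chaperones around it are the usual readout of the ATF6 and XBP1 branches, and ECs depend on this machinery because they export large amounts of secreted and surface protein.

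ATF6 binds the ER stress response element, in which CCAAT and CCACG stand 9 bases apart, together with the factor NF-Y. The element was searched on both strands in RefSeq promoters of build GRCm38.p6, from 250 bases before to 50 after each gene start, and 9 of the 10 genes were matched. Of these promoters, 3 held the element, against 0.119% of all 32851 promoters, and Hsp90b1 held it at 2 places. A shorter form, in which ATTGG and CCACG stand 1 base apart, was searched after the first results were known, and Herpud1 held it, against 0.0365% of all promoters. Of the 9 matched genes, Herpud1 was also the 1 with TGATGNAA, likewise searched later, a core of the composite site that ATF4 shares with C/EBP factors, which 3.97% of all promoters and 10 of 38 promoters of the ATF4 target list (26.3%) held. The matched stretches are shown because they place the letters in each promoter. Capitals mark the fixed letters, and each stretch is written 5′ to 3′ on the strand that carries the match.
Hspa5, chr2:34772020-34772048, plus strand: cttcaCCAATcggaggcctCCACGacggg
Hsp90b1, distal, chr10:86705633-86705661, minus strand: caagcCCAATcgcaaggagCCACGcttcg
Hsp90b1, proximal, chr10:86705528-86705556, plus strand: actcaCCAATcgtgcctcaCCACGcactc
Creld2, chr15:88819515-88819543, minus strand: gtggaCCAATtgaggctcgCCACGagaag
Herpud1, short form, chr8:94386372-94386392, plus strand: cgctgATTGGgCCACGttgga
Herpud1, ATF4 composite core, chr8:94386312-94386329, minus strand: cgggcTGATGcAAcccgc

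Of single parts of the element, CCAAT was held by 8 of the 9 promoters (37.4% of all promoters) and CCACG by 8 of 9 (32.8%). Among 35 promoters of other ATF6 and XBP1 branch genes, 7 held the whole element (20.0%), and none of 38 promoters of ATF4 targets did. A match describes these letters in this window and is not a measurement of binding.

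Each gene was read in 2 ways in the same libraries. The authors deposited HTSeq counts per gene, and 1095488 to 1778732 counts per library fell on genes. These were 0.823% to 0.858% of all counts in the count tables, counts on no gene included. The authors also deposited a table of A-to-G sites with the reads at each site, and the median number of reads over the listed exonic sites of a gene was taken as its exonic depth. Depths were scaled to 100000000 counts of the count table, with counts on no gene included. A scaled depth is thus a level per base at the listed sites of a gene. Comparisons between genes therefore depend on which sites are listed. Sites without an altered call in a library are not listed for it, and 82.8% to 83.2% of listed exonic sites had 1 altered read, so the sites sample positions along a transcript. Their number differed between libraries, as for Herpud1 with 4, 9, 2 and 16 exonic sites, so depths may compare different positions. Counting used default settings, which read strand in 1 fixed way, and no source used here says whether this fits the library kit, so a count may hold reads of the other strand. In CON of EC1, Hspa5 had a median of 1663.5 reads at its listed sites but 93 counts over the whole gene. Snx22, a gene whose exons lie opposite to those of Ppib, an abundant ER isomerase gene, had counts of 7284, 5151, 10339 and 9395, while Ppib itself had 9, 13, 18 and 15. Of all counts in the count tables, 92.8% to 93.9% fell on no gene. A gene count may therefore be mostly reads of the other strand, which was not tested. Gene counts and their tests are given beside depth as another value, not as a measure of a gene's own mRNA. Reads at a listed site were not split by strand, so depth at bases shared with an opposite-strand gene may hold reads of both genes. Levels are of bulk RNA, in which fewer cells of a type and less RNA per cell cannot be told apart.

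Adar was read first as a check of the labels. Its gene counts were 9, 47, 16 and 71. The floxed stretch is described as exons 12 to 15, with no transcript named for the numbering. The transcript read here has 15 exons (gene at chr3:89715022-89753446, plus strand). Exons 12 to 14 held 3 listed sites with a scaled depth of 109 in CON of EC1 and no site in TM, and 1 site at 118 in CON of EC2 against 2 sites at 31.6 in TM. Exons 1 to 11 went the other way, at 115, 504, 123 and 463. Exon 15 of this transcript was also higher in TM, at 74.4, 320, 109 and 403, which goes against the described loss of this exon, and which numbering applies was not settled. Exons 12 to 14 were thus low or without a site in both TM libraries, while the remainder of this gene, itself induced by interferon, and exon 15 were high. Of the exonic bases of Adar, 1365 are shared with opposite-strand exons of Chrnb2, whose counts were 70, 447, 76 and 563.

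The 10 genes did not all lie on the same side of CON in TM. In exonic depth, both TM libraries lay above both CON libraries for 2 genes (Herpud1 and Hspa5), both lay below for 4 (Manf, Hsp90b1, Sdf2l1 and Pdia4), and the groups overlapped for 4 (Creld2, Edem1, Xbp1 and Dnajb9). Among all 9788 genes with at least 1 listed site in every library, these shares were 25.9% above and 25.2% below, and among those with at least 3 sites 27.2% and 25.1%. At least 3 listed sites in every library were asked of a gene for the main test, limma on log2 scaled depth with condition alone, which 7 of the 10 genes met. None of the 7 passed an adjusted p of 0.05, while 437 of 6836 genes passed as higher (6.39%) and 372 as lower (5.44%). An unadjusted p under 0.05 was found for 2 of the 7, beside 1682 of the 6836 genes. With the mouse as a block, 3 of the 7 were lower (Manf, Hsp90b1 and Pdia4) and none was higher. In that fit 9.70% of all genes passed in each direction. With libraries scaled to an equal median over genes, the same 3 were lower and Hspa5 was higher. Beside them, 874 of the 6836 genes were lower and 568 higher. With at least 1 site, of all 10 genes Herpud1 alone was higher (3.92% of all genes) and none was lower (2.48%), and with the mouse as a block Herpud1 was higher (5.24%) and Manf and Hsp90b1 were lower (4.62%). The median log2 difference of the 7 was -0.38, against 0.01 over all genes tested.

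**Figure D1:**
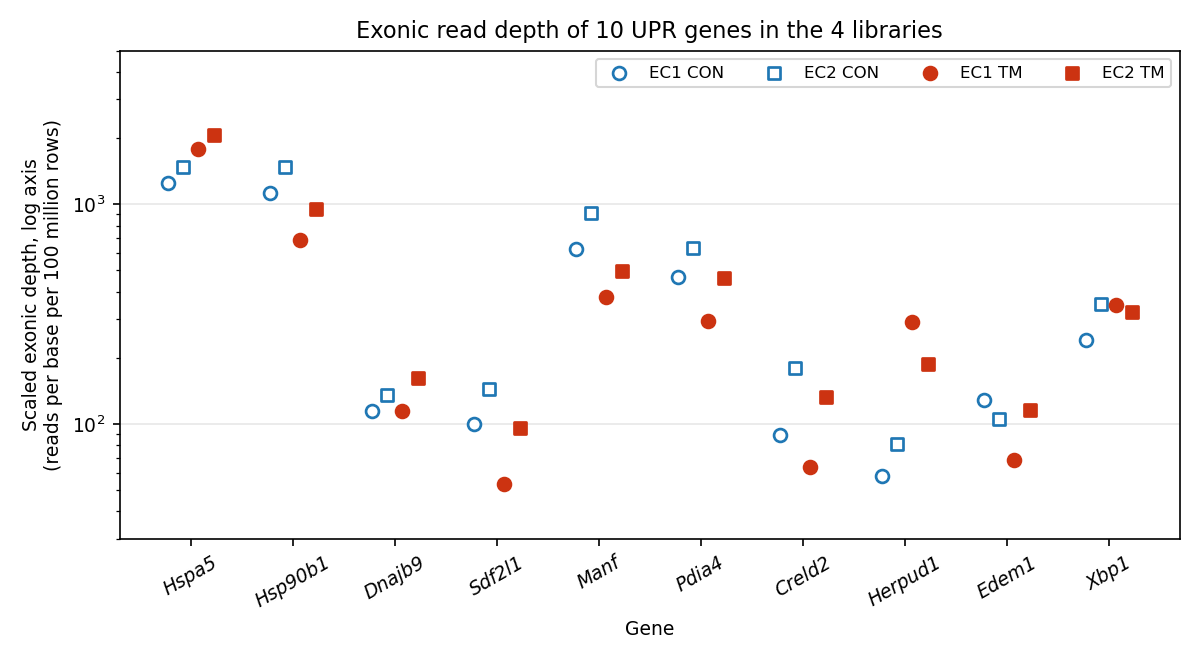
Scaled exonic depth (vertical log axis) of the 10 genes in each library, in reads per base per 100000000 counts, which the axis calls rows. Blue open symbols are CON, filled red symbols TM, circles EC1 and squares EC2. The red symbols lie above the blue ones for Hspa5 and Herpud1 and below them for Hsp90b1, Sdf2l1, Manf and Pdia4.

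Hspa5 and Hsp90b1, both ER chaperone genes, lay on opposite sides of CON in TM, and neither passed the main test. Depths of 2 other ER chaperone genes, Canx (1475, 1286, 1843 and 1726) and Hyou1 (231, 236, 287 and 312), overlapped between the groups. Both were picked after their values were seen and do not stand for the list of other branch genes below. Of 37 genes tested in that list, 15 had both TM below both CON (25.1% of all genes) and 4 both above (27.2%). Hspa5 (chr2:34771970-34777547, plus strand) encodes BiP, the HSP70 of the ER lumen, which also holds the sensors inactive. The scaled depth of Hspa5 was 1250 in CON and 1790 in TM of EC1, and 1485 and 2074 in those of EC2, over 66 to 100 listed sites. Both TM values were above both CON values, by 1.43 times in EC1 and 1.40 times in EC2. The log2 difference was 0.50 (95% interval -0.14 to 1.14, adjusted p = 0.350, limma), and with the mouse as a block the interval was 0.17 to 0.83 and the adjusted p 0.0512, just outside the threshold. With libraries scaled to an equal median over genes Hspa5 passed (log2 difference 0.42, adjusted p = 0.0470, limma).

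Hsp90b1 (chr10:86690209-86705509, minus strand) encodes GRP94, the HSP90 of the ER, which folds Toll-like receptors and integrins. Scaled depths of 1125 in CON and 687 in TM were found in EC1, and of 1471 and 950 in EC2. Both TM values were below both CON values. The log2 difference was -0.67 (95% interval -1.30 to -0.05, adjusted p = 0.167, limma), and it passed with the mouse as a block (adjusted p = 0.0213, limma). Gene counts of Hsp90b1 were 127, 64, 128 and 129 in the same order, and edgeR's quasi-likelihood test gave a log2 difference of -0.80 (adjusted p = 0.128, and 0.0167 with the mouse as a block). Of its exonic bases, 415 are shared with an exon of 1810014B01Rik on the opposite strand.

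Within a library, the ratio of Hspa5 to Hsp90b1 depth does not depend on scaling. It was 1.11 and 1.01 in the CON libraries of EC1 and EC2, against 2.604 and 2.18 in their TM libraries. These 2 genes were the deepest of the 10 in all 4 libraries, at nearly equal levels in CON, and the ratio was chosen after its values were seen and was not tested.

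**Figure D2:**
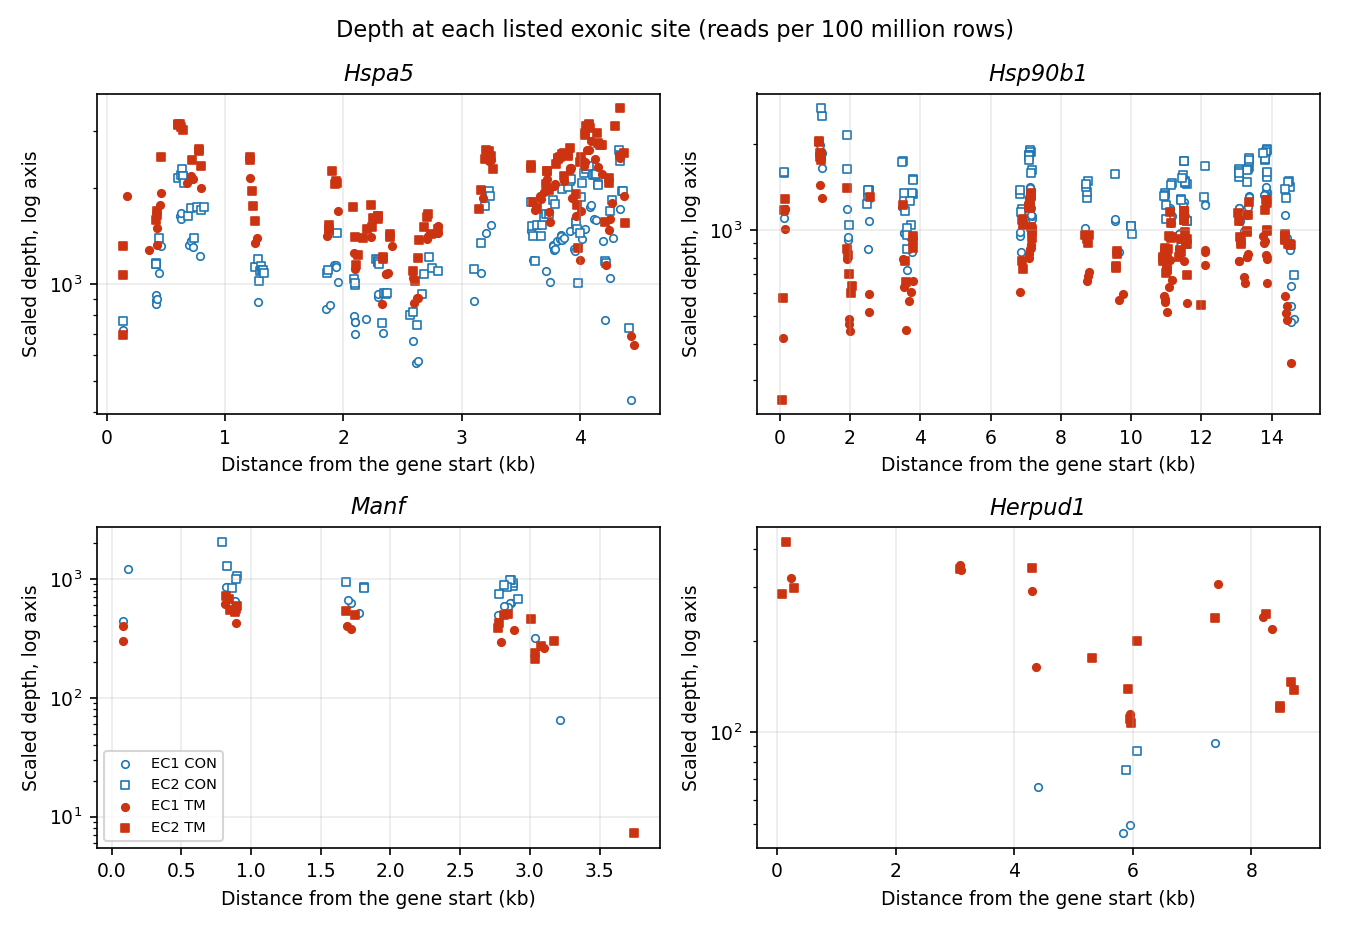
Scaled depth (vertical log axis) at each listed exonic site of Hspa5, Hsp90b1, Manf and Herpud1 against the distance of the site from the gene start in kb. Open blue symbols are CON and filled red symbols TM, circles EC1 and squares EC2. Red lies mostly above blue along Hspa5 and below blue along Hsp90b1 and Manf, and Herpud1 has 4 CON sites in EC1 and 2 in EC2.

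Genes of proteins that work with BiP included Manf, with the lowest log2 difference of the 10 in exonic depth. Manf encodes a secreted ER protein that slows the release of nucleotide from BiP. Its scaled depths were 624 in CON and 378 in TM of EC1 and 912 and 499 in those of EC2. The TM values were 1.65 times lower in EC1 and 1.83 times lower in EC2. The log2 difference was -0.80 (95% interval -1.40 to -0.19, adjusted p = 0.0777, limma), and with the mouse as a block Manf passed (adjusted p = 0.0132, limma). Gene counts of Manf did not show this difference, with 35, 36, 22 and 49 (log2 difference 0.23, adjusted p = 0.830, edgeR), and 312 of its exonic bases are shared with opposite-strand exons of 4930524O07Rik and Dcaf1.

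Dnajb9 encodes ERdj4, a J-domain partner of BiP and a target of XBP1s. Scaled depths of this gene were 114, 115, 136 and 162. The groups overlapped, and the log2 difference was 0.13 (95% interval -0.46 to 0.71 and adjusted p = 0.840, limma). Its gene counts were low, at 0, 11, 5 and 17 in the same order, and a count of 0 allows up to 3 counts, or 2.74 CPM, in CON of EC1. Both TM counts were above both CON counts, and the gene passed the filter on low counts through TM alone, with a log2 difference of 2.07 (95% interval 0.33 to 3.81, adjusted p = 0.148, edgeR). Without CON of EC1 it was 1.07 and without CON of EC2, with the remaining CON count at 0, it was 6.72, so its size rests on single CON libraries. Sdf2l1, which encodes an ER-resident component of BiP complexes, had a scaled depth of 99.6, 53.1, 144 and 96.0 in the same order over 2 to 10 sites. Both TM values were below both CON values, and among genes with at least 1 site its log2 difference was -0.75 (95% interval -1.55 to 0.05, adjusted p = 0.268, limma). Leaving out each library in turn moved this difference between -1.17 and -0.32.

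Pdia4 and Creld2 had lower depths in TM within each mouse, and neither passed the test with condition alone. Pdia4 encodes ERp72, a protein disulfide isomerase. In CON and TM its scaled depth was 468 and 295 for EC1 and 634 and 461 for EC2, so that both TM values were below both CON values. The log2 difference was -0.56 (95% interval -1.17 to 0.04, adjusted p = 0.245, limma), and it passed with the mouse as a block (adjusted p = 0.0411, limma). This call was lost among genes with at least 1 site (0.0731, limma), and leaving out TM of EC1 moved the log2 difference to -0.24, without a block. Creld2, which encodes an ER stress-induced protein with isomerase-like activity, had scaled depths of 88.7, 63.7, 180 and 132. The TM value was lower by 1.39 and 1.36 times within the mice while the groups overlapped, and TM of EC1 listed only 1 site. Among genes with at least 1 site its log2 difference was -0.46 (adjusted p = 0.592, limma).

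The genes of ER-associated degradation (ERAD) differed from each other. Herpud1 encodes a membrane protein that gathers the ERAD machinery and is known to answer to ATF4 as well as to ATF6 and XBP1. In EC1 its scaled depth was 57.9 over 4 sites in CON and 292 over 9 sites in TM, and in EC2 it was 81.2 over 2 sites in CON and 188 over 16 sites in TM. Both TM values were well above both CON values. CON of EC2 missed the minimum of 3 sites, and among genes with at least 1 site the log2 difference was 1.77 (95% interval 1.06 to 2.48, adjusted p = 0.00989, limma, and 0.0367 with the mouse as a block). Leaving out each library in turn kept the adjusted p between 0.000236 and 0.0418 (limma). Where sites had to be listed in both libraries of a mouse, Herpud1 could not be tested, and none of the 10 was called in limma. Over the stretch from the first to the last site listed in a CON library (chr8:94390836-94393827), the scaled depth was 57.9, 115, 81.2 and 158 in the same order, or 1.98 times higher in TM of EC1 and 1.94 times in TM of EC2. This stretch, added after seeing the data, holds 1 listed site in TM of EC1, and the difference in it was smaller than the 5.05 and 2.31 times over the whole gene. Gene counts of Herpud1 were 2, 15, 5 and 14, with a log2 difference of 1.73 (adjusted p = 0.297, edgeR with no filter on low counts).

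Edem1 encodes a mannosidase-like lectin that leads misfolded glycoproteins to ERAD. Scaled depths of Edem1 were 128, 68.7, 105 and 116. The TM value was the lower of the pair in EC1 and the higher in EC2, and the log2 difference of -0.38 (95% interval -0.99 to 0.23, adjusted p = 0.479, limma) was within the spread between libraries. Leaving out each library in turn moved this difference between -0.76 and -0.0063.

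Xbp1 is both a target of the response and the mRNA that IRE1 cuts. It had scaled depths of 240 and 349 in CON and TM of EC1 and 353 and 324 in those of EC2, so the highest value was in a CON library. The log2 difference was 0.21 (95% interval -0.37 to 0.79, adjusted p = 0.718, limma). The 26 bases that IRE1 removes lie in exon 4, at chr11:5524282-5524307 on the plus strand, and are shown in capitals with 2 bases on each side because depth inside them would tell spliced from unspliced mRNA.
Xbp1 IRE1 intron: agCACTCAGACTATGTGCACCTCTGCAGca
A site inside these bases was listed in CON of EC1 alone, with 168 reads against a median of 334 over the other exonic sites of that library. No TM library listed a site there, so the spliced share could not be read in TM.

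RNA editing offered another view of the same transcripts. Sites with 5 or more reads, of which 3 or more were altered, and an altered fraction between 0.05 and 0.95 were taken as edited, which 2.61% to 3.15% of all listed sites of a library met. Of the 10 genes, Xbp1 alone held such a site in its mature mRNA, at chr11:5525558 in an ID_B1 repeat of the 3′ UTR. Altered reads there were 24 of 276 (8.70%) in CON and 7 of 392 (1.79%) in TM of EC1, and 31 of 431 (7.19%) and 29 of 550 (5.27%) in those of EC2. Both TM rates were below both CON rates, by more in EC1 than in EC2, and the difference was not tested. The other passing sites were an intronic site of Hsp90b1 with 4 of 8 reads and a distal 5′ site of Hspa5 with 3 of 9 reads, both in TM of EC2.

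Gene counts of the 10 genes were low and gave wide intervals, within the limit of strand given above. Both TM counts, as CPM (a gene's share of all counts on genes), were above both CON counts for Hspa5, Dnajb9 and Herpud1, below for Hsp90b1 and Creld2, and overlapped for the other 5. Of the 7899 genes tested, 27.6% had both TM above both CON and 21.4% both below. The filter on low counts kept 7 of the 10 genes, not Herpud1, Sdf2l1 and Creld2. None of the 7 passed in edgeR, where 612 genes did (7.75%), 347 higher (4.39%) and 265 lower (3.35%), and none passed in DESeq2. In edgeR 2 of the 7, Hsp90b1 and Dnajb9, had an unadjusted p under 0.05, beside 1621 of the 7899 genes. Of these 2, Dnajb9 passed the filter on low counts through TM alone. With the mouse as a block, Hsp90b1 was lower, beside 7.39% of all genes, and none was higher, beside 7.60%. Hspa5 counts were 93, 106, 67 and 202, with a log2 difference of 0.55 (95% interval -0.10 to 1.21, adjusted p = 0.346, edgeR). Counts of Xbp1 (43, 51, 38 and 44), Pdia4 (13, 9, 21 and 24) and Edem1 (6, 6, 15 and 24) gave log2 differences of -0.06, -0.45 and 0.07 that none of these tests told from 0. Those of Creld2 (9, 7, 9 and 8), tested with no filter on low counts, gave -0.56 (adjusted p = 0.842, edgeR).

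**Figure D3:**
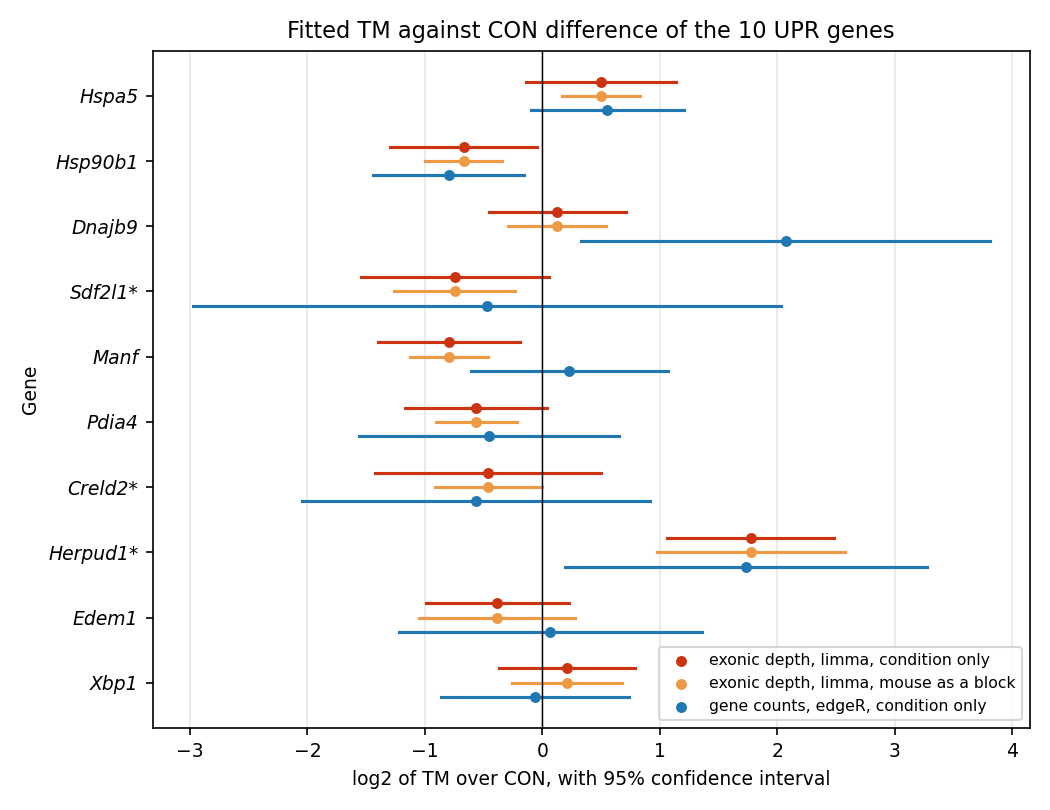
Fitted log2 of TM over CON (horizontal axis) with its 95% confidence interval for the 10 genes, from exonic depth with condition alone (red), exonic depth with the mouse as a block (orange) and gene counts with condition alone (blue). For the 3 genes with an asterisk the depth fits used genes with at least 1 listed site and the count fit no filter. The points are on the right for Herpud1 in all 3 fits, while Hsp90b1 lies on the left in all 3 and Manf lies on the left in depth and at 0.23 in counts.

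Other genes of the ATF6 and XBP1 branches, a list of 40 chosen by role, were read beside the 10. In exonic depth 37 were tested and 4 were lower (5.44% of all genes), none higher (6.39%), with a median log2 difference of -0.35 against 0.01 over all genes. With the mouse as a block, beside 9.70% of all genes each way, 11 were lower and 1, the ERAD ligase gene Syvn1, was higher (log2 difference 0.60, adjusted p = 0.0496, limma). Among genes with at least 1 site the block gave 5 lower (4.62% of all genes) and none higher, so the call of Syvn1 was lost. The 4 were Calr, Sec61b, Pdia6 and Tram1, and none of them passed where all genes with at least 1 site were tested together, nor without CON of EC2, TM of EC1 or TM of EC2. Calr, which encodes the lectin chaperone calreticulin, had scaled depths of 2222 and 1187 in CON and TM of EC1 and 3272 and 1332 in those of EC2. Its log2 difference was -1.10 (SE 0.32, adjusted p = 0.0232, limma). Sec61b, a subunit of the channel that imports proteins into the ER, went from 591 to 313 in EC1 and from 778 to 378 in EC2 (log2 difference -0.98, SE 0.29, adjusted p = 0.0218, limma). Pdia6, another disulfide isomerase, went from 987 to 458 and from 1282 to 724 (log2 difference -0.97, SE 0.31, adjusted p = 0.0360, limma), and Tram1, a helper of the same channel, from 357 to 215 and from 490 to 248 (adjusted p = 0.0435, limma). For each of these genes both TM depths lay below both CON depths. Counts did not follow this order in every gene. Those of Sec61b were 1, 8, 2 and 13, with both TM above both CON, and were too low for the test. Calr had counts of 129, 59, 101 and 121, Pdia6 had 47, 9, 37 and 54, and Tram1 had 26, 9, 16 and 19.

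In gene counts 29 of these 40 genes were tested and none passed in edgeR or in DESeq2, while 4 were lower with the mouse as a block (7.39% of all genes). An unadjusted p under 0.05 was found in edgeR for 8 of the 29, beside 1621 of all 7899 genes tested. The smallest edgeR p-values were those of Dnajc3, Derl1 and Pdia3. Dnajc3, the BiP partner p58IPK, had counts of 118, 76, 121 and 91 (log2 difference -0.85, adjusted p = 0.0129 in edgeR with the mouse as a block, not passing without it), and its depth passed with the block (log2 difference -0.74, adjusted p = 0.0346, limma, against 0.0999 without), a call lost among genes with at least 1 site. Leaving out each library in turn gave log2 differences from -1.10 to -0.39 in depth without a block (adjusted p up to 0.826, limma). Derl1, an ERAD channel component, had counts of 6, 15, 1 and 19 (adjusted p = 0.122, edgeR) and passed the filter on low counts through TM alone. Pdia3, the isomerase that works with calreticulin, had 81, 33, 72 and 81 (adjusted p = 0.160, edgeR, and 0.0492 with the block).

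The sensors themselves were read in the same way. Ern1, which encodes IRE1alpha, rose in depth, from 51.8 to 126 in EC1 and from 69.0 to 108 in EC2 (log2 difference 0.97, SE 0.29, adjusted p = 0.0266, limma), a call that was lost among genes with at least 1 site and without CON of EC1, TM of EC1 or TM of EC2 (adjusted p up to 0.325, limma). Its counts of 11, 13, 2 and 24 did not pass (adjusted p = 0.364, edgeR). Atf6 went from 49.97 to 93.7 and from 69.0 to 106 and passed with the mouse as a block (adjusted p = 0.0436, limma, against 0.0935 without). It also passed with at least 5 or 10 sites and with equal medians over genes, and the block call was lost among genes with at least 1 site. Without a block, leaving out each library in turn gave log2 depth differences from 0.53 to 0.995 for Atf6. Its counts of 15, 10, 12 and 22 did not follow the depth (log2 difference -0.15, adjusted p = 0.931, edgeR). Mbtps1 and Mbtps2, the proteases that cleave ATF6, had log2 depth differences of -0.45 and 0.23 (adjusted p = 0.332 and 0.736, limma). Eif2ak3, which encodes PERK, had too few sites for the test, with a scaled depth of 55.2 in CON and no listed site in TM of EC1, and 71.8 and 25.1 in those of EC2. Of the 6 sensor and processing genes tested, 1 was higher (6.39% of all genes) and none lower without the block.

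The ATF4 branch gave a different picture in the same libraries. Of its 32 genes, 21 were tested in depth and 16 were higher (6.39% of all genes), none lower, with a median log2 difference of 1.88 against 0.01 over all genes. The difference between these lists was not tested, and ATF4 targets were known from earlier results of these data to rise. Atf4 itself had scaled depths of 415 and 1464 in CON and TM of EC1 and 481 and 1709 in those of EC2 (log2 difference 1.82, SE 0.29, adjusted p = 4.31e-05, limma). Nupr1, a stress-induced chromatin protein gene, went from 88.7 to 659 and from 86.4 to 608, and Asns, asparagine synthetase, from 81.5 to 634 and from 113 to 651. Slc7a11, the cystine transporter gene, went from 36.1 to 312 and from 55.7 to 573 in depth, while its gene counts were 508, 328, 684 and 763 and were lower with the mouse as a block (log2 difference -0.56, adjusted p = 0.0243, edgeR). Trib3, a pseudokinase that feeds back on ATF4, went from 143 to 884 and from 212 to 1054 in depth. Its counts were 4, 33, 2 and 49, but it passed the filter on low counts through TM alone, so its count test adds no support.

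In gene counts, Ddit3, Cebpb, Slc3a2 and Jdp2 of the ATF4 branch were called higher with counts past the low-count filter in both groups. Another 6 that were called higher, Trib3, Chac1, Atf3, Phgdh, Mthfd2 and Nupr1, had at most 4 counts in a CON library and passed that filter through TM alone, so that their number supports nothing. None was called lower, and 4.39% of all genes were called higher. Ddit3, which encodes the ER stress factor CHOP, had counts of 136, 563, 189 and 781 (log2 difference 1.70, SE 0.30, adjusted p = 0.000205, edgeR), and its exonic depth went from 43.6 to 366 and from 53.6 to 459 with 1 listed site in each CON library. Of its exonic bases, 81 are shared with opposite-strand exons of Gm4189 and Mars, and counts of Mars were 105, 396, 64 and 808. Mthfd2, a mitochondrial folate enzyme gene, had 0, 14, 0 and 30 counts, both CON libraries being at 0. Each of these genes had both TM values above both CON values in the readouts named, except the counts of Slc7a11.

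**Figure D4:**
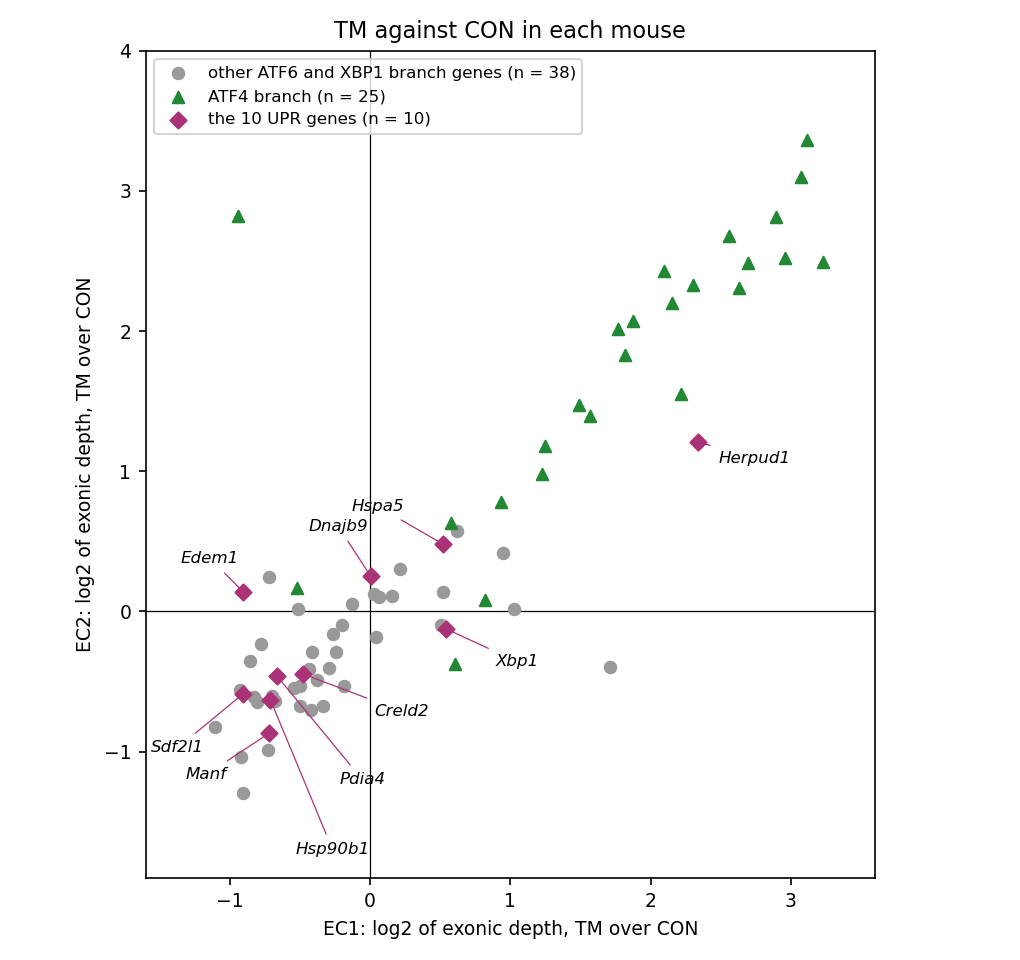
Log2 of TM over CON exonic depth in EC1 (horizontal axis) against EC2 (vertical axis) for genes with at least 1 listed site in every library, with grey circles for 38 other ATF6 and XBP1 branch genes, green triangles for 25 ATF4 branch genes and purple diamonds for the 10 named genes. Most green triangles lie far up and to the right, Herpud1 (2.34 and 1.21) lies among them, and most other diamonds and grey circles lie near or below 0.

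Of the eIF2alpha kinases, Eif2ak2, the gene of PKR and an interferon-stimulated gene, was higher in depth, from 113 to 354 in EC1 and from 115 to 342 in EC2 (log2 difference 1.61, SE 0.27, adjusted p = 8.81e-05, limma). Its counts of 120, 225, 93 and 266 passed with the mouse as a block alone (adjusted p = 0.00213, edgeR, against 0.0747 without). Eif2ak1 and Eif2ak4, the genes of HRI and GCN2, had log2 depth differences of 0.08 (95% interval -0.49 to 0.66) and -0.05 (95% interval -0.75 to 0.65). As a reference for the response in TM, all 11 tested interferon-stimulated genes of a list of 16 were higher in depth (6.39% of all genes), with a median log2 difference of 4.61. Those with the smallest p by limma were Rsad2, Ifit3 and Ifit1, with log2 differences of 7.19, 6.51 and 5.06, and by edgeR Rsad2, Ifit2 and Tap1, whose counts were 3 and 6 in CON against 217 and 324 in TM, 15 and 2 against 297 and 402, and 19 and 15 against 234 and 431. Rsad2 and Ifit2 did not reach the filter on low counts in both CON libraries and passed it through TM. Their place in the edgeR order therefore supports nothing.

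Markers of the cell type and of other cells were read beside these results. The 12 endothelial markers had summed scaled depths of 24410, 20819, 30790 and 22753, and their deepest genes were Cdh5 (4730), Eng (4477), Emcn (5605) and Eng (5090) in the same order, so that the labelled cell type was marked in every library. Of 11 tested, 1 was lower (Cldn5, log2 difference -1.66, adjusted p = 0.000366, limma, beside 5.44% of all genes) and 5 were with the mouse as a block (9.70%), none higher. All 11 had a log2 difference below 0, 7 had both TM below both CON (25.1% of all genes) and none both above (27.2%). Their median log2 difference in depth was -0.42, beside -0.38 for the 7 tested UPR genes, -0.35 for the other ATF6 and XBP1 branch genes and 0.01 over all genes, so depths of endothelial markers lay lower in the same libraries as those of Manf, Hsp90b1 and Pdia4. In counts the 12 markers summed to 1607, 1534, 1284 and 1556 CPM. Of 9 tested in counts 1 was lower (Cldn5, beside 3.35% of all genes) and none higher, 2 were lower with the mouse as a block (7.39%), 3 had both TM above both CON (27.6%) and 3 both below (21.4%), and the median log2 difference was 0.11. The 11 fibroblast and smooth muscle markers summed to 594, 206, 940 and 323 in the same order over 6 to 10 genes with a listed site, and Dcn, the deepest in 3 libraries, went from 255 to 92.9 and from 311 to 104. Leukocyte markers summed to 36.8, 20.9, 28.6 and 34.97 over 1 to 3 of 8 genes, and epithelial markers to 39.1, 31.9, 45.3 and 45.6 over 1 to 3 of 8. In counts the fibroblast and smooth muscle markers summed to 593, 601, 531 and 501 CPM, the leukocyte markers to 68.5, 74.8, 49.1 and 52.3 and the epithelial markers to 21.9, 20.1, 12.3 and 16.3. Their most counted genes were Tagln (548, 534, 553 and 761 counts), Csf1r (54, 63, 50 and 53) and Sftpb (16, 18, 12 and 14). Of the exonic bases of Tagln 1349, and of Csf1r 873, are shared with genes of the opposite strand. Counts of Lyz2 and Cd3e, of leukocytes, and of Krt19, of epithelium, were 0 in all 4 libraries. A count of 0 does not show absence here, since Lyz2 had a scaled depth of 28.6 in CON of EC2 and the endothelial marker Vwf had 0 counts in both TM libraries with a listed depth in each. The part of these markers in the results was not tested.

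The genes whose depth over the 4 libraries was most like the mean of the 7 tested UPR genes were Tlk1, Sec31a, Psma6, Rab11fip5 and Erc1, at Euclidean distances of 0.0192, 0.0239, 0.0295, 0.0367 and 0.0486 on centred log2 depth, out of 3087 genes with at least 10 sites in every library. Sec31a, which encodes a coat protein of vesicles that leave the ER, had a scaled depth of 467, 377, 573 and 511. Psma6, a proteasome subunit gene, had 598, 495, 742 and 642. As in the mean profile, each TM value of these 2 genes was below the CON value of its mouse, and nothing follows from this likeness about function or control.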

How the data were processed

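RNA of 4 libraries (2 CON, 2 TM) was depleted of ribosomal RNA and sequenced. According to the submitters' processing notes the authors used Trimmomatic 0.38, STAR 2.6.1a (mm10) and HTSeq 0.11.2, and deposited raw counts per gene. Of all counts, 92.8% to 93.9% fell on no gene and 5.29% to 6.32% were not unique. Both were left out of the library sizes of the count tests and kept in the scaling of depth. The deposited site table, made with BCFtools mpileup, gives counts of reference and altered reads and the altered fraction, and its columns, whose names do not say CON or TM, were matched to libraries by a supplementary table of the study that names them, with equal reads at 1998 of 1998 sites.

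Counts were tested with edgeR 4.0.16 (filterByExpr, TMM, quasi-likelihood) and scaled exonic depth with limma 3.58.1 (trend), each across all genes with Benjamini-Hochberg adjustment, in R 4.3.3. DESeq2 1.42.0 was an alternative. CON and TM of a number came from the same mouse, and the deviations of same-numbered libraries from their group means correlated with r = 0.163 in counts and 0.100 in depth over genes. Since p-values rest on 2 libraries per group, they measure the spread between these cultures.

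The genes, lists and alternatives were chosen with earlier results of these data known. Beyond the 10 genes and Adar, the 3 genes with the smallest edgeR p and the 3 with the smallest limma p of each list were named, with the 5 genes of most similar depth. Tram1, Syvn1, Atf4, Eif2ak3, Cldn5, Dcn, Vwf, Ppib, Canx, Hyou1 and the opposite-strand genes Snx22, Chrnb2 and Mars were named after their values were seen. Positions are from GENCODE vM21 (GRCm38), and promoters from RefSeq. Opposite-strand overlaps are given since counting used default settings and no source used here says whether these fit the strand of the libraries. Depth at a site was not split by strand either, so it may also hold reads of an overlapping gene.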

Additional observations from a re-analysis of the deposited data

How the results depend on the processing

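Since CON and TM came from the same mouse, the fits were repeated with the mouse as a replicate block. Gene counts then gave 1184 genes past the threshold (600 higher, 584 lower) in place of 612, with 1 of the 10 genes, 1 ATF4 target and 4 other ATF6 and XBP1 branch genes lower. In that fit 14 ATF4 targets were higher, among them genes that passed the filter on low counts through TM alone. Exonic depth gave 1326 (663 higher, 663 lower) in place of 809, with 3 of the 10 lower, 18 ATF4 targets higher and, of the other branch genes, 11 lower and 1 higher. DESeq2 gave 366 genes (129 lower, 6 ATF4 targets higher), and with the block 405 (223 higher, 4 ATF4 targets higher). The share over all genes is not given for DESeq2, so these counts of targets cannot be set against it. Library totals without TMM gave 399 (122 lower).

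For exonic depth, at least 1 listed site gave 243 genes lower, 1 of the 10 higher and 0 other branch genes lower, and with the block, added after seeing the data, 1 of the 10 higher and 2 lower, and of the other branch genes 5 lower and 0 higher (the call of Syvn1 was lost). At least 5 sites gave 816 genes (385 lower), and the mean in place of the median gave 1043 (494 lower), each with 1 of the 10 lower (Manf). At least 10 sites gave 539 genes (283 higher), 5 ATF4 targets higher and, of the other branch genes, 1 higher and 6 lower. Except for at least 1 site and equal medians, the number of genes tested is not given for the settings of this paragraph. Their counts of listed genes therefore cannot be set against a share of all genes. Equal medians over genes moved the median of all genes from 0.01 to -0.06 and gave 1442 genes (874 lower), 1 of the 10 higher (Hspa5) and 3 lower, and 15 other branch genes lower. Without 3′ UTR sites 786 genes passed (433 higher, 353 lower), 10 ATF4 targets were higher and 4 other branch genes were lower. With 3′ UTR sites alone 205 genes passed (95 higher, 110 lower), 5 ATF4 targets were higher, 1 other branch gene was lower, and the sign turned for Xbp1 (-0.031), Pmp22 (-0.021) and Tlk1 (0.25). Sites shared by both libraries of a mouse gave 119 genes (69 higher, 50 lower) and 1 ATF4 target higher, and with at least 1 such site, also added later, 91 (77 higher, 14 lower) and 3 ATF4 targets higher, with 0 of the 10 and 0 other branch genes called in both, Herpud1 not tested, and Eif2ak1 at -0.14 in both.

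Leaving out each library in turn, gene counts gave 436 to 574 genes (264 to 301 higher, 172 to 273 lower), 3 to 11 ATF4 targets higher and 0 to 2 other branch genes lower. Exonic depth gave 371 to 912 genes (223 to 679 higher, 108 to 578 lower), 14 to 17 ATF4 targets higher, 0 to 1 of the 10 lower (Manf, without CON of EC1), and of the other branch genes 0 to 3 higher and 0 to 9 lower. The log2 difference in depth ranged from -0.88 to -0.24 for Pdia4, from -0.90 to -0.44 for Hsp90b1 and from -1.07 to -0.52 for Manf. A lone library in a group is assumed to vary like the others. In these fits the log2 difference crossed 0 in counts for Xbp1 (-0.54 to 0.33), Edem1 (-0.81 to 0.88), Manf (-0.051 to 0.57), Atf6 (-0.43 to 0.047), Eif2ak1 (-0.10 to 0.16) and Pmp22 (-0.56 to 0.48). In depth it did so for Xbp1 (-0.069 to 0.49), Dnajb9 (-0.12 to 0.38), Creld2 (-0.99 to 0.065, with 0.050 without CON of EC2), Mbtps2 (-0.12 to 0.58), Eif2ak1 (-0.078 to 0.25), Eif2ak4 (-0.31 to 0.21), Hspa8 (-0.36 to 0.11), Pmp22 (-0.14 to 0.37), Tlk1 (-0.43 to 0.00133) and Rab11fip5 (-0.43 to 0.020). The cause of these changes was not tested. Counts of genes passing in these fits rest on 1 library in a group and are not read as results about the lists. Counts on genes were under 1% of all counts, so that genes with few counts, such as Dnajb9, Herpud1, Sdf2l1 and Creld2, had wide intervals. Exonic depth rests on few sites in low genes.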

Other observations

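Chaperones outside the ER were read for comparison. Of 16 cytosolic and mitochondrial chaperone genes tested in exonic depth, 1 was higher (6.39% of all genes) and none lower (limma), with a median log2 difference of -0.08. The 1 was Hspa9, the HSP70 of mitochondria, at scaled depths of 534 and 1591 in CON and TM of EC1 and 664 and 1816 in those of EC2 (log2 difference 1.51, SE 0.30, adjusted p = 0.000598, limma). This call was lost without TM of EC1 or TM of EC2 (adjusted p up to 0.117, limma). Its counts were 42, 71, 41 and 146 (adjusted p = 0.0799, edgeR), and they passed with the mouse as a block (log2 difference 0.97, adjusted p = 0.0187, edgeR). Hspa1a and Hspa1b, the heat-inducible HSP70 genes of the cytosol, which are near-identical copies and share reads, had log2 depth differences of -0.73 and -0.66 (adjusted p = 0.302 and 0.144, limma). Hspa8, the constitutive cytosolic HSP70, had a scaled depth of 3259, 3327, 4510 and 3731 (log2 difference -0.12, 95% interval -0.84 to 0.60). Hspb1 had counts of 10, 50, 28 and 63 and a log2 depth difference of -0.42, so that its readouts went opposite ways (adjusted p = 0.0914, edgeR, and 0.419, limma). Leaving out each library in turn gave log2 differences from -0.81 to -0.034 in depth and from 0.64 to 2.17 in counts, so their size rests on single libraries. With the mouse as a block the counts of Hspb1 were higher (log2 difference 1.27, adjusted p = 0.0188, edgeR).

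Of 6 known substrates of the RNA decay activity of IRE1, 2 were tested in depth and 3 among genes with at least 1 site. Bloc1s1, the best-known of them, went from 283 to 196 in EC1 and from 421 to 288 in EC2, and was lower with the mouse as a block alone (log2 difference -0.54, adjusted p = 0.0463, limma, against 0.266 without), a call lost among genes with at least 1 site. Without a block, leaving out each library in turn gave log2 depth differences from -0.83 to -0.25 for Bloc1s1. Its counts were 38, 74, 33 and 86 (adjusted p = 0.175, edgeR). Pmp22 had a scaled depth of 245, 231, 267 and 330 (log2 difference 0.11, adjusted p = 0.860, limma). Hgsnat, a lysosomal acetyltransferase gene, was lower among genes with at least 1 site (2.48% of all genes) but not with the mouse as a block, and its scaled depth was 186, 108, 261 and 70.4. Col6a1, a collagen gene, had a scaled depth of 15.8 in CON and no listed site in TM of EC1, and 17.4 and 4.34 in those of EC2. Scara3 had no listed site in CON of EC1 and in TM of EC2, with 0.759 in TM of EC1 and 4.18 in CON of EC2, and Pdgfrb had 5.26 and 12.9 in the CON libraries and no listed site in TM.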
